A study of Homo sapiens with 8 samples.

Results

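The comparison of phorbol 12-myristate 13-acetate (PMA) with untreated cells covered 4 of the 8 messenger RNA libraries of the series, 2 from untreated cells and 2 from cells given PMA, chosen by their labels. All of them came from MEG-01, an established human megakaryoblastic leukaemia line grown in RPMI medium with fetal bovine serum, so every result describes 1 line. PMA was given at 100 nM for 48 h. The labels name no vehicle and no time for the untreated cells. The other libraries of the series, 2 with PMA and 20 µM Ceefourin 2, which blocks the transporter ABCC4, and 2 with Ceefourin 2 alone, enter the fit for its estimate of spread and are used below only as a comparison with no shared library. Nothing in the labels says whether the replicates were separate cultures, so p-values measure the spread between these libraries, which may be technical.

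PMA is a stable mimic of diacylglycerol, the lipid that recruits and activates several isoforms of protein kinase C. Active protein kinase C drives the MAP kinase cascade and transcription factors of the AP-1 and NF-kB families, and blood cell lines with megakaryocytic potential respond by stopping division, spreading and switching on genes of platelets. A megakaryocyte also builds an internal membrane system, fills secretory granules and reorganises actin and tubulin before it sheds platelets. The account below concerns the gene families beyond platelet, cell cycle and globin markers.

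The deposited expected counts summed to between 44430292 and 63165554 per library. Levels are given as TMM-scaled CPM (counts relative to each library's effective size, mean ± SD of 2 libraries) and changes as log2 fold changes from edgeR with their standard errors. A gene is said to have risen or fallen where the Benjamini-Hochberg adjusted p over all 17314 tested genes was below 0.05. By that rule 27.9% of tested genes were higher and 25.7% lower after PMA, and 16.3% were higher and 10.3% lower by at least 2-fold. For tested protein-coding genes, which the lists mainly hold, the shares were 30.3% higher and 28.8% lower. Shares near these are not a result about a family. Of 14 megakaryocyte genes, 13 were tested and all 13 rose, with a median log2 fold change of 4.11. A rise after PMA is not itself a check of the labelled cell type. Their summed TPM in the untreated libraries was 666 and 675, of which ITGA2B alone made up 296 and 307. Transcripts of the mitochondrial genome took 2.55% and 3.94% of counts in the untreated libraries and 9.61% and 4.53% in the PMA libraries, so PMA replicate 1 stood apart on that measure. By limma on the deposited TPM, where TMM scaling is absent, 35.4% of calls were higher against 52.1% in edgeR, and the median of all tested genes was -0.14 against 0.00 on the log2 scale.

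Promoter windows from RefSeq (GRCh38.p14, 250 bases before to 50 after the annotated start) were matched by symbol to 10822 of 13549 tested protein-coding genes, pseudoautosomal duplicates left out. Where a symbol had several windows, only the first by chromosome and coordinate was kept. The AP-1 motif TGANTCA, which reads the same on both strands, occurred in 10.7% of the 299 promoters of genes that rose at least 16-fold, in 7.67% of the 1709 that rose at least 2-fold, in 4.06% of the 4413 that were not called, and in 5.05% of the 1108 that fell at least 2-fold. It occurred in 4.81% of all tested genes with a window and in 7.9% of all 27305 windows in the table. Both the share of promoters with the AP-1 letters and the share with a TATA box were highest among the genes with the largest rises. TATAAA was searched on the gene's strand with its first base 40 to 20 bases before the start. It was present in 10% of promoters that rose at least 16-fold and 4.92% of those that rose at least 2-fold. The share was 1.65% of those not called, 1.81% of those that fell at least 2-fold and 2.59% of the whole table.

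The motif of E2F factors, TTTNGCGC on either strand, was distributed the other way round. It was in 0.334% (1 of 299) of promoters that rose at least 16-fold and 1.7% of those that rose at least 2-fold. The share was 2.9% of those not called, 4.51% of those that fell at least 2-fold and 1.8% of the table. The ratio of observed to expected CpG had a median of 0.431 in genes that rose at least 16-fold and 0.709 in genes that rose at least 2-fold. It was 0.832 in genes not called, 0.816 in genes that fell at least 2-fold and 0.558 in the whole table. The genes with the largest rises were thus poor in CpG. The NF-kB consensus was found in 14.9% of promoters that rose at least 2-fold and 15.5% of those that fell at least 2-fold, against 12% of those not called. The cyclic AMP element TGACGTCA was in 2.81%, 1.9% and 3.04% of the same groups, the E box CACGTG in 5.91%, 10.8% and 9.54%, and the EGR motif GCGTGGGCG in 1.35%, 1.35% and 1.18%. All motifs but TATAAA were searched on both strands, none of these shares was tested, and a match is not evidence that a factor binds there. The AP-1 and cyclic AMP letters cannot be the same match, since they differ by 1 base in length.

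**Figure D1:**
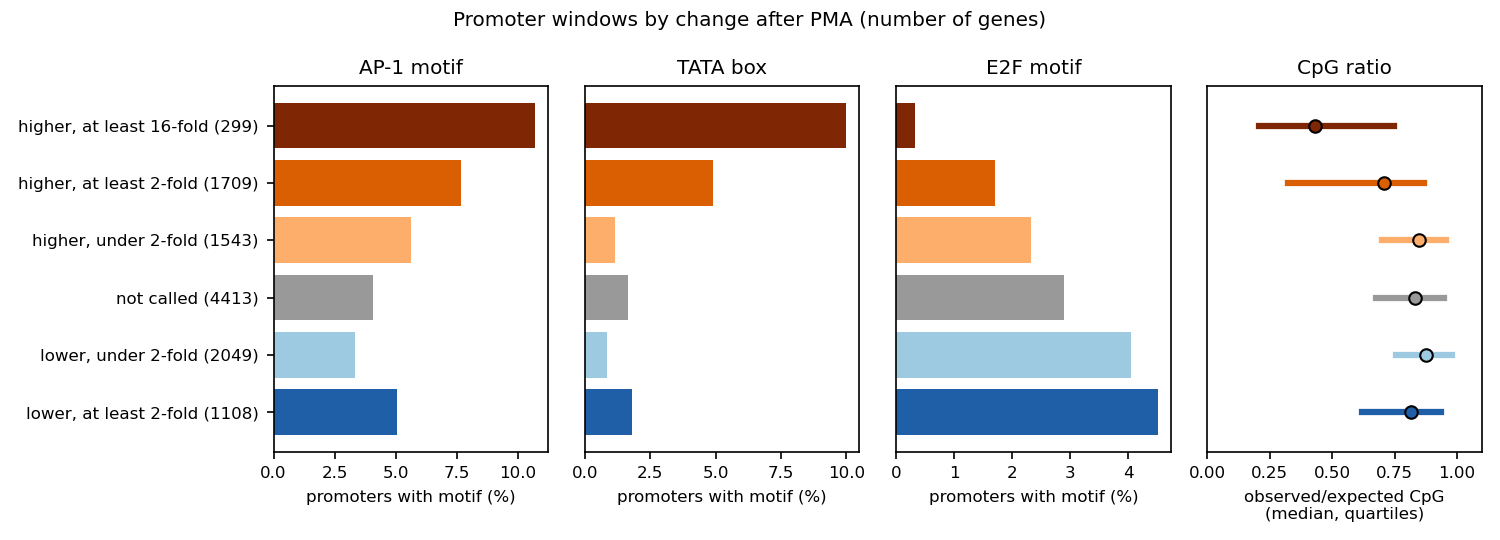
Share of promoter windows (percent of genes in the class) with the AP-1 motif, a TATA box or the E2F motif, and the median observed to expected CpG ratio with its quartiles, for genes by their change after PMA. The class of at least 2-fold rises includes that of at least 16-fold. AP-1 and TATA shares are highest, and E2F and CpG lowest, in the class that rose at least 16-fold.

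The stretches below show these letters in genes described in the text. Each is the 130 bases just before the start site, 5′ to 3′ on the gene's strand, with the motif in capitals. SERPINB2, TFPI2, CD59 and LAT rose and hold the AP-1 letters, SERPINB2 and LY6G6C hold the TATA box 30 bases before the start, GNG2 holds the AP-1 letters and fell, and HELLS, which fell, holds the E2F letters on the other strand.
SERPINB2: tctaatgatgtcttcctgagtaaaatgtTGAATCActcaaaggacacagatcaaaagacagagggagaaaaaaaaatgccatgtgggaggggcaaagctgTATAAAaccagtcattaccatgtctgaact
TFPI2: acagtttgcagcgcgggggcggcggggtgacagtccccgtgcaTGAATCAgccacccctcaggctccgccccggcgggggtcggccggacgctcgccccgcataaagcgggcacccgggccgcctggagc
CD59: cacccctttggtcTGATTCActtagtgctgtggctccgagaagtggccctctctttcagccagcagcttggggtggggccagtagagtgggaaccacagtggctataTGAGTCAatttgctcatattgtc
LAT: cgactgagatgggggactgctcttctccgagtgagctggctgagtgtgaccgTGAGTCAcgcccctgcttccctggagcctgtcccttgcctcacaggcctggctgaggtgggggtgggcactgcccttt
GNG2: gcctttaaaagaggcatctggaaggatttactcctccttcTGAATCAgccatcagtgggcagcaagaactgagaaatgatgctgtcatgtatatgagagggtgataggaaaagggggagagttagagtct
LY6G6C: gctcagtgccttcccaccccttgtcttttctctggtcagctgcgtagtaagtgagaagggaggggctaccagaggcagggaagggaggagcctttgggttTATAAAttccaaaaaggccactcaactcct
HELLS: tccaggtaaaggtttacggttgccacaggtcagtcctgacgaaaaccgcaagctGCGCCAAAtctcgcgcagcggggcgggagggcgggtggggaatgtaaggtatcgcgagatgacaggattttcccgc

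The 4 genes of the AP-1 set that rose differ in the place of the match and in base composition. In SERPINB2 (chr18:63887575-63887704, plus strand) the match begins 102 bases before the start, in TFPI2 (chr7:93890754-93890883, minus strand) 87, in LAT (chr16:28984673-28984802, plus strand) 78, and in CD59 (chr11:33722728-33722857, minus strand) 117 and 23. GNG2 (chr14:51826044-51826173, plus strand) carries it 90 bases before the start. CD59 holds a further AP-1 match that begins 3 bases after the start, outside its printed stretch. LY6G6C, of the Ly6 family of small surface proteins, lies at chr6:31721747-31721876 on the minus strand and was at 0.104 and 0.0980 CPM in the untreated and 36.7 and 31.8 CPM in the PMA libraries. HELLS lies at chr10:94545658-94545787 on the plus strand, and its match begins 76 bases before the start.

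Protease inhibitors were among the genes with the largest rises. SERPINB2, which encodes an inhibitor of urokinase and tissue plasminogen activators, was at 2.79 and 4.07 CPM in the untreated and 1475 and 1129 CPM in the PMA libraries (log2 fold change 8.56, SE 0.28, adjusted p = 1.46e-06). TFPI2, an inhibitor of plasmin and trypsin-like proteases, was at 0.603 and 0.980 CPM in the untreated and 355 and 262 CPM in the PMA libraries (log2 fold change 8.58, SE 0.30). TIMP1, the secreted inhibitor of matrix metalloproteinases, was at 88.7 and 106 CPM in the untreated and 1747 and 1459.8 CPM in the PMA libraries (log2 fold change 4.04, SE 0.15). These 3 genes were ranked over all genes, where both PMA libraries had to lie on the same side of both untreated libraries. Of the 14 tested genes in the list of cystatins, Kazal-type, WFDC, Kunitz and alpha-2-macroglobulin inhibitors, 8 rose and 0 fell. TFPI, the inhibitor of tissue factor and factor VIIa, rose from 30.2 ± 11.4 to 103 ± 14.1 CPM, and SPINT2, a membrane inhibitor of trypsin-like proteases, rose from 223 ± 21.8 to 426 ± 1.82 CPM.

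Complement and coagulation genes followed, with 16 of 30 tested higher and 4 lower and a median log2 fold change of 1.01. The largest log2 fold change of that list, 8.77, was also the largest among the megakaryocyte genes, so these lists share a gene. CD59, the membrane protein that blocks the complement attack complex, was at 52.8 and 62.1 CPM in the untreated and 494 and 457 CPM in the PMA libraries (log2 fold change 3.05, SE 0.12). F2R, the thrombin receptor PAR1, rose from 127 ± 12.1 to 388 ± 24.5 CPM, and C3AR1, the receptor for C3a, rose from 4.11 ± 1.67 to 13.6 ± 3.44 CPM. The lectin-domain protein thrombomodulin, which turns thrombin into an activator of protein C, is encoded by THBD, and THBD rose from 7.93 ± 2.6 to 126 ± 16.3 CPM.

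Many extracellular matrix genes rose. Of 37 tested matrix glycoprotein genes, 22 rose and 4 fell (median log2 fold change 1.33, and 0.38 on log2(TPM + 1)). Of 20 tested collagen genes 12 rose and 2 fell (median 1.59), against 8 and 2 (median 0.13) on log2(TPM + 1). The summed TPM of the collagen list was low, at 6.6 and 8.76 in the untreated and 26.1 and 17.5 in the PMA libraries. THBS1, thrombospondin 1 of alpha granules, was at 1.54 and 1.62 CPM in the untreated and 42.6 and 46.3 CPM in the PMA libraries (log2 fold change 4.81, SE 0.18). MMRN1, the factor V binding protein multimerin of the same granules, was at 14.5 and 15.3 CPM in the untreated and 234 and 305 CPM in the PMA libraries (log2 fold change 4.18, SE 0.16). TNXB, a tenascin, rose from 0.906 ± 0.312 to 66.4 ± 6.22 CPM, and the crosslinking enzyme TGM2, tissue transglutaminase, rose from 137 ± 12.8 to 376 ± 49.7 CPM. COL1A1 was the only collagen gene above 5 CPM after PMA among those that rose, at 0.166 and 0.147 CPM in the untreated and 42.2 and 24.6 CPM in the PMA libraries. LAMA2, a laminin alpha chain, and EMILIN2 fell from 6.22 ± 1.39 to 1.67 ± 0.850 CPM and from 22.3 ± 0.0197 to 11.7 ± 1.17 CPM. The most abundant collagen by TPM was COL23A1 in both untreated libraries and COL1A1 in both PMA libraries.

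Cell adhesion genes changed in both directions. CDH2, N-cadherin, rose from 52.3 ± 4.31 to 154 ± 29.2 CPM, and PCDH10 rose from 0.748 ± 0.235 to 19.1 ± 1.44 CPM, while CDH7 fell from 7.72 ± 2.25 to 1.06 ± 0.666 CPM, and over the family 16 of 44 tested members rose and 11 fell, against 6 and 10 on log2(TPM + 1). NCAM1, the neural cell adhesion molecule, was at 2.54 and 1.85 CPM in the untreated and 84.5 and 66.6 CPM in the PMA libraries (log2 fold change 5.12, SE 0.22). NRCAM, of the L1 family, rose from 0.333 ± 0.263 to 12 ± 3.32 CPM. ROBO1, a receptor for Slit, fell from 92.7 ± 9.48 to 31.4 ± 0.928 CPM, and SLITRK5 fell from 26 ± 8.66 to 2.99 ± 0.108 CPM. F11R, the junctional molecule JAM-A that platelets carry, was at 67.8 and 82.7 CPM in the untreated and 404 and 417 CPM in the PMA libraries (log2 fold change 2.45, SE 0.12), and ESAM, of the same family, rose from 59.9 ± 2.46 to 181 ± 11.9 CPM. SELPLG, the ligand of P-selectin, was at 59.8 and 69.1 CPM in the untreated and 4.37 and 4.02 CPM in the PMA libraries (log2 fold change -3.94, SE 0.22), so the ligand fell in the same libraries in which the lineage marker SELP, its receptor, rose from 0.469 ± 0.0757 to 21.9 ± 9.41 CPM. CD24, a heavily glycosylated surface protein that also binds P-selectin, was at 873 and 708 CPM in the untreated and 63.6 and 45.3 CPM in the PMA libraries (log2 fold change -3.86, SE 0.21). CD44, the hyaluronan receptor, rose from 269 ± 6.17 to 2469.7 ± 152 CPM, and LYVE1, another hyaluronan receptor known from lymphatic endothelium, rose from 0.232 ± 0.181 to 75.4 ± 0.828 CPM.

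The enzymes that cap surface sugars moved in both directions. In the list of sialyl-, fucosyl-, galactosyl- and related glycosyltransferases, 24 of 63 tested members rose and 20 fell, and the balance turned to 17 and 22 on log2(TPM + 1). ST6GAL1, which adds alpha-2,6 sialic acid to N-glycans, was at 86.3 and 72.4 CPM in the untreated and 601 and 540.1 CPM in the PMA libraries (log2 fold change 2.85, SE 0.13). ST3GAL2 rose from 102 ± 8.32 to 349 ± 14.7 CPM and ST3GAL6 rose from 0.0950 ± 0.0420 to 5.74 ± 1.52 CPM. The enzymes that fell furthest were ST6GALNAC5 (from 7.84 ± 0.696 to 0.509 ± 0.0474 CPM), ST6GALNAC1 (from 5.09 ± 1.85 to 0.349 ± 0.0866 CPM) and FUT9 (from 21.7 ± 1.02 to 2.54 ± 0.420 CPM), which act on gangliosides, on mucin-type O-glycans and on Lewis x synthesis. Among heparan and chondroitin sulphate enzymes, EXT1, a copolymerase of heparan sulphate, rose from 11.2 ± 2.16 to 75.3 ± 23 CPM, and DSE, the dermatan sulphate epimerase, fell from 30.4 ± 0.0883 to 8.13 ± 0.448 CPM.

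Most tested genes of the actin-based machinery rose in edgeR. In the list of myosin heavy and light chains, which also holds the kinase gene MYLK, 24 of 35 tested genes rose and 3 fell. Their median log2 fold change was 0.96, and 0.44 on log2(TPM + 1), where 19 rose and 4 fell. Of 44 tested actin nucleators 26 rose, 8 of them at least 2-fold, and 3 fell. On log2(TPM + 1) 19 nucleators rose and 5 fell. The paralogous non-muscle myosin II heavy chains went opposite ways. MYH9, the heavy chain of myosin IIA, was at 358 and 292 CPM in the untreated and 1543 and 1373 CPM in the PMA libraries (log2 fold change 2.16, SE 0.13, adjusted p = 9.11e-06). MYH10, the heavy chain of myosin IIB, was at 164 and 134 CPM in the untreated and 25.8 and 28.9 CPM in the PMA libraries (log2 fold change -2.44, SE 0.15, adjusted p = 1.19e-05). The ratio of MYH9 to MYH10 CPM therefore went from 2.19 to 53.3. MYLK, the myosin light chain kinase, was at 0.582 and 1.06 CPM in the untreated and 92.4 and 135 CPM in the PMA libraries (log2 fold change 7.07, SE 0.39), and the light chain gene MYL6 rose from 276 ± 45.1 to 885 ± 128 CPM.

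Among actin nucleators, FMNL3, a formin, was at 20.2 and 18.5 CPM in the untreated and 176 and 159 CPM in the PMA libraries (log2 fold change 3.11, SE 0.13). DIAPH1, another formin, rose from 1148 ± 75.7 to 2401 ± 54.1 CPM, while DIAPH3 fell from 32.5 ± 2.24 to 10.4 ± 1.79 CPM. RAC2, the blood cell Rac, rose from 170.4 ± 10.7 to 561 ± 25.8 CPM, and RAC3 fell from 83.8 ± 7.49 to 49 ± 5.63 CPM. The Rac exchange factor TIAM1 fell from 127 ± 22.4 to 45.6 ± 0.121 CPM. Targets of serum response factor and YAP rose in 22 of 38 cases and fell in 5, against 19 and 5 on log2(TPM + 1). CCN1 rose from 2.86 ± 0.563 to 12.8 ± 1.37 CPM and TPM1, a tropomyosin, fell from 24 ± 4.5 to 14.8 ± 2.16 CPM.

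Septins and intermediate filaments each had members that rose and members that fell. Of 9 tested septin and anillin genes 2 rose and 5 fell, and of 15 tested intermediate filament genes 7 rose and 5 fell. SEPT2 and VIM had the highest TPM of these lists in every library. SEPT5, a septin of neurons and platelets, was at 0.442 and 0.442 CPM in the untreated and 37.5 and 46 CPM in the PMA libraries (log2 fold change 6.56, SE 0.22), and since it lies just ahead of the platelet gene GP1BB, with transcripts that can read through both, its level is uncertain. SEPT10 rose from 0.488 ± 0.0725 to 11.3 ± 2.74 CPM, whereas SEPT6 fell from 66.9 ± 0.436 to 35.4 ± 3.03 CPM, SEPT8 fell from 129 ± 8.03 to 57.1 ± 5.79 CPM and SEPT11 fell from 244 ± 19.5 to 164 ± 4.46 CPM. LMNA, which encodes the A-type lamins of the nuclear envelope, was at 110.1 and 126 CPM in the untreated and 549.8 and 541 CPM in the PMA libraries (log2 fold change 2.21, SE 0.11), and LMNB2, which encodes a B-type lamin, fell from 168 ± 12.6 to 86.9 ± 2.44 CPM. VIM fell from 1872 ± 21.1 to 996 ± 210.0 CPM, NEFH, a neurofilament subunit, fell from 297 ± 59.2 to 50.2 ± 0.995 CPM, and the simple epithelial keratin pair KRT8 and KRT18 rose from 5.18 ± 1.8 to 20.9 ± 2.39 CPM and from 16.3 ± 0.401 to 81.6 ± 6.17 CPM.

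**Figure D2:**
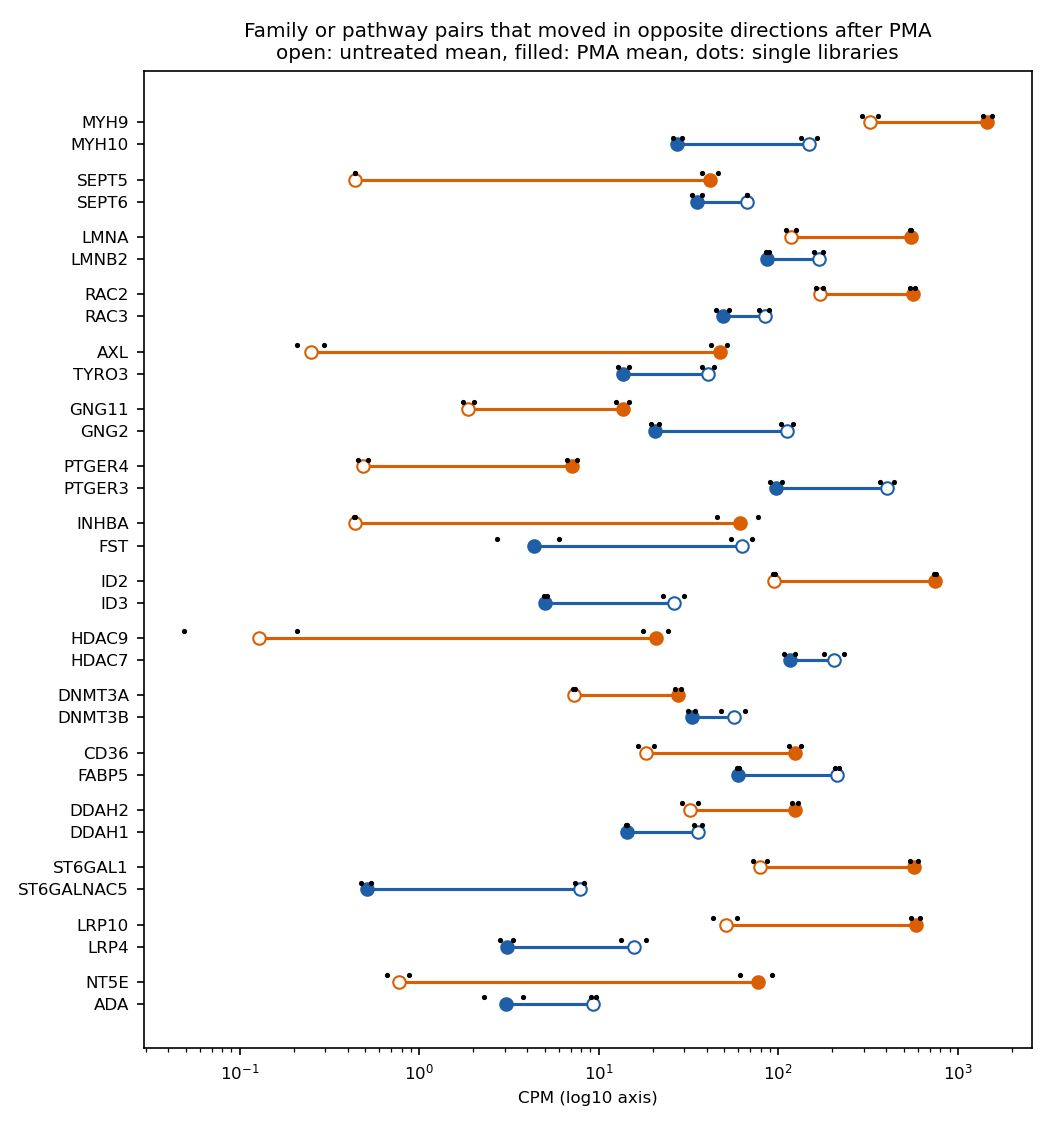
Mean CPM in untreated (open) and PMA (filled) libraries for gene pairs of 1 family or pathway that moved in opposite directions, on a log10 axis, with lines joining the 2 means and small points for the single libraries. Pairs were chosen so that the first gene rose and the second fell, without overlap between the libraries of the 2 groups.

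Most tested receptors of the immunoglobulin type known from white blood cells rose. Of 25 tested siglec, LILR, CD300 and SLAM genes, 17 rose and 2 fell (median log2 fold change 1.48, and 0.36 on log2(TPM + 1)). SIGLEC6, a sialic acid binding receptor, was at 185 and 206 CPM in the untreated and 1160.4 and 1060.2 CPM in the PMA libraries (log2 fold change 2.51, SE 0.17). SIGLEC12 rose from 181 ± 1.13 to 505 ± 66.6 CPM and CD300C rose from 11.4 ± 1.3 to 72.4 ± 1.56 CPM, while CD33 fell from 217 ± 3.52 to 113 ± 0.205 CPM. By TPM the leading member of this list was CD33 in both untreated libraries and SIGLEC6 in both PMA libraries. Among C-type lectins and galectins, LGALS1, galectin 1, rose from 86.9 ± 23.8 to 504 ± 28.8 CPM, CD69, an early activation antigen, rose from 19.9 ± 2.93 to 135 ± 21.8 CPM, and MRC2, a collagen-uptake receptor, rose from 19.1 ± 2.58 to 123 ± 7.97 CPM.

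Of 33 tested interleukin receptor genes, 21 rose and 4 fell (median 0.71). IL6ST, the shared signal transducer gp130, was at 26.7 and 27.1 CPM in the untreated and 115 and 128 CPM in the PMA libraries (log2 fold change 2.18, SE 0.13). IL2RG, the common gamma chain, rose from 113 ± 15.3 to 242 ± 9.08 CPM, IL7R rose from 0.236 ± 0.195 to 6.88 ± 2.76 CPM, and IL1R1 fell from 18.2 ± 1.92 to 3.32 ± 0.352 CPM. Of 23 JAK, STAT, SOCS and PIAS genes, which act downstream of such receptors and were all tested, 13 rose and 3 fell (8 and 5 on log2(TPM + 1)). STAT3 rose from 208 ± 19.7 to 477 ± 3.85 CPM and SOCS3 rose from 6.7 ± 0.425 to 19.7 ± 0.494 CPM, and SOCS2, a feedback inhibitor induced by STAT5, fell from 229 ± 8.8 to 105 ± 18.6 CPM.

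The TNF receptor superfamily had 11 members higher and 3 lower of 20, against 7 and 3 on log2(TPM + 1). TNFRSF12A, the receptor of TWEAK, was at 2.1 and 1.67 CPM in the untreated and 41.1 and 42.6 CPM in the PMA libraries (log2 fold change 4.48, SE 0.22), and TNFRSF1A and TNFRSF1B, the TNF receptors, rose from 56.7 ± 4.83 to 154 ± 16.5 CPM and from 3.64 ± 0.421 to 24.5 ± 7.79 CPM. TNFRSF8, which encodes CD30, fell from 105 ± 34.8 to 22.1 ± 0.762 CPM. Their intracellular adaptor TRAF1 rose from 1.23 ± 0.180 to 36.5 ± 8.73 CPM, TRAF5 fell from 15.8 ± 2.66 to 5.56 ± 0.0234 CPM, and TNFAIP3, the ubiquitin-editing inhibitor A20, was at 9.06 and 15.6 CPM in the untreated and 279 and 287 CPM in the PMA libraries (log2 fold change 4.51, SE 0.37). Of 12 tested ligand genes 7 rose, but none of these 7 reached 5 CPM in either group.

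Receptors for lipid mediators changed in both directions. Of 21 tested receptors for lysophospholipids, prostanoids and leukotrienes, 12 rose and 5 fell. PTGER3, the prostaglandin E2 receptor EP3 that lowers cyclic AMP, was at 441 and 370.2 CPM in the untreated and 105 and 90.1 CPM in the PMA libraries (log2 fold change -2.05, SE 0.17, adjusted p = 4.62e-05). PTGER4, the EP4 receptor that raises cyclic AMP, was at 0.520 and 0.457 CPM in the untreated and 6.63 and 7.61 CPM in the PMA libraries (log2 fold change 3.86, SE 0.23, adjusted p = 8.53e-06). PTGIR, the prostacyclin receptor, which also raises cyclic AMP, rose from 2.0 ± 1.15 to 11.9 ± 4.11 CPM, and LPAR5, LPAR2 and S1PR3 rose from 14.8 ± 1.84 to 70.9 ± 0.966 CPM, from 0.899 ± 0.184 to 14.7 ± 1.39 CPM and from 0.419 ± 0.123 to 10.6 ± 0.179 CPM. The EP3 gene still had the highest mean CPM of these prostaglandin receptor genes after PMA.

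Adenosine genes changed at 3 steps. NT5E encodes CD73, which makes adenosine from AMP outside the cell, and was at 0.665 and 0.882 CPM in the untreated and 92.5 and 61.4 CPM in the PMA libraries (log2 fold change 6.62, SE 0.26, adjusted p = 1.9e-06). ADORA3, the A3 adenosine receptor, was at 0.561 and 0.408 CPM in the untreated and 37 and 26.7 CPM in the PMA libraries (log2 fold change 6.05, SE 0.41). Its neighbour TMIGD3 also rose at least 2-fold, and the summed ADORA3 count of 3415.1 in the PMA libraries was not whole. Some of its reads were thus shared out by RSEM, so the level of ADORA3 is uncertain. ADA, which destroys adenosine, fell from 9.34 ± 0.432 to 3.05 ± 1.07 CPM. The producing enzyme and the receptor rose and the degrading enzyme fell in the same libraries. P2RX1, the ATP-gated channel of platelets, rose from 11 ± 1.97 to 41.4 ± 7.21 CPM.

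Several genes of calcium stores rose among ion channels and pumps. ATP2A3, the SERCA3 calcium pump of platelet stores, was at 96.6 and 131 CPM in the untreated and 696 and 747 CPM in the PMA libraries (log2 fold change 2.66, SE 0.19). ATP2C1, the Golgi calcium and manganese pump, rose from 81 ± 6.07 to 249.7 ± 35.7 CPM, ORAI2 and ORAI3, subunits of store-operated channels, rose from 20.7 ± 0.805 to 65.8 ± 4.95 CPM and from 3.07 ± 1.85 to 13.5 ± 2.32 CPM, and ATP2B3, a plasma membrane calcium pump, fell from 41.8 ± 2.49 to 13.5 ± 1.4 CPM. TRPV2 rose from 36.3 ± 1.03 to 194 ± 16.4 CPM. Potassium channel genes were split at 11 higher and 9 lower of 34 tested, against 6 and 8 on log2(TPM + 1). KCNK3, a background potassium channel, was at 0 and 0 CPM in the untreated and 11.2 and 6.33 CPM in the PMA libraries. KCNA3 rose from 0.341 ± 0.0714 to 10.4 ± 4.9 CPM, KCNH2 fell from 263 ± 21.3 to 158 ± 3.05 CPM and KCNQ5 fell from 61.3 ± 7.34 to 25 ± 1.36 CPM. The most abundant potassium channel gene by TPM was KCNH2 in the untreated libraries and KCNN4, a calcium-gated channel, in the PMA libraries. GABRE, an epsilon subunit of GABA-A receptors, was at 11 and 10.0 CPM in the untreated and 222 and 171 CPM in the PMA libraries (log2 fold change 4.23, SE 0.21). GABRB2, a beta subunit, fell from 38.1 ± 8.6 to 6.31 ± 0.246 CPM. Among water channels, AQP3 rose from 26.3 ± 4.6 to 176 ± 1.78 CPM and AQP2, known from the kidney collecting duct, was at 0.0831 and 0.0980 CPM in the untreated and 20.3 and 20.5 CPM in the PMA libraries. Among carriers, SLCO2B1, an organic anion uptake carrier, rose from 0.311 ± 0.000994 to 36.9 ± 11.6 CPM, SLC20A1, a phosphate carrier, rose from 284 ± 88.9 to 1019.7 ± 139 CPM, and SLC16A9 fell from 66.3 ± 6.5 to 7.73 ± 0.193 CPM.

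Of 21 tested receptor tyrosine kinase genes 7 rose and 7 fell, and of 24 tested G protein subunit genes 5 rose and 5 fell, as many higher as lower in each list. AXL, a receptor for GAS6, was at 0.208 and 0.294 CPM in the untreated and 52.1 and 42.2 CPM in the PMA libraries (log2 fold change 7.52, SE 0.27). TYRO3, of the same family, fell from 40.9 ± 4.26 to 13.7 ± 1.35 CPM. EPHB6, an Eph receptor without kinase activity, was at 1.33 and 1.57 CPM in the untreated and 135 and 103 CPM in the PMA libraries (log2 fold change 6.35, SE 0.20). EPHA5 fell from 5.78 ± 1.08 to 0.735 ± 0.153 CPM. FGFR4 and MET, receptors for fibroblast growth factors and hepatocyte growth factor, fell from 17.7 ± 1.54 to 2.44 ± 0.497 CPM and from 22.6 ± 3.19 to 4.76 ± 0.0998 CPM, and HGF, the ligand of MET, fell from 10.8 ± 0.505 to 1.69 ± 0.478 CPM. GNG11, a G protein gamma subunit found in platelets, rose from 1.88 ± 0.186 to 13.6 ± 1.61 CPM. GNG2, whose promoter stretch is printed above, was at 104 and 120.1 CPM in the untreated and 21.7 and 19.5 CPM in the PMA libraries (log2 fold change -2.44, SE 0.12). RGS1, which shortens G protein signals, was at 0.125 and 0.0980 CPM in the untreated and 20.9 and 29.1 CPM in the PMA libraries. NTSR1, the neurotensin receptor, was at 0.0416 and 0 CPM in the untreated and 18.5 and 13.7 CPM in the PMA libraries.

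Genes of the BMP, activin and TGF-beta pathway changed in both directions. INHBA encodes the subunit of activin A and was at 0.436 and 0.441 CPM in the untreated and 77.5 and 45.3 CPM in the PMA libraries (log2 fold change 7.12, SE 0.35, adjusted p = 3.81e-06). FST encodes follistatin, the secreted protein that binds and blocks activin, and was at 71.4 and 54.7 CPM in the untreated and 6.0 and 2.72 CPM in the PMA libraries (log2 fold change -3.84, SE 0.46, adjusted p = 0.00027). The ligand gene rose and the gene of its antagonist fell. SMAD7, an inhibitory SMAD, was at 1.16 and 1.5 CPM in the untreated and 99 and 128 CPM in the PMA libraries (log2 fold change 6.39, SE 0.25), BAMBI, a decoy receptor, rose from 2.25 ± 0.00670 to 99.2 ± 18.5 CPM, and LTBP1, which holds latent TGF-beta in the matrix, was at 2.97 and 4.03 CPM in the untreated and 363 and 359.5 CPM in the PMA libraries (log2 fold change 6.68, SE 0.20). ID2 rose from 94.8 ± 1.85 to 749.5 ± 12.4 CPM whereas the related inhibitors of bHLH factors ID1 and ID3, both known BMP targets, fell from 44.6 ± 3.61 to 19.3 ± 0.921 CPM and from 26.2 ± 4.97 to 5.03 ± 0.134 CPM. Over the list, 23 of 51 tested members rose and 14 fell. In the Notch list 15 of 34 rose and 5 fell (8 and 5 on log2(TPM + 1)), with the inhibitor NUMB rising from 35.6 ± 3.81 to 92.6 ± 7.35 CPM and HES6 falling from 42.9 ± 3.55 to 15.5 ± 0.854 CPM.

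Adaptor and kinase genes of immune receptor signalling changed in both directions. Of 48 tested cytoplasmic tyrosine kinase and adaptor genes, 30 rose and 8 fell (median 0.59). LAT, the membrane scaffold used by the collagen receptor of platelets and by the T cell receptor, rose and was at 113 and 128 CPM in the untreated and 281 and 314 CPM in the PMA libraries. LAT2 rose from 14.3 ± 1.54 to 89.3 ± 13.5 CPM and CBLB, a ubiquitin ligase that restrains tyrosine kinases, rose from 7.14 ± 0.783 to 93 ± 27.9 CPM. PAG1, a membrane adaptor that recruits an inhibitor of Src kinases, fell from 17.6 ± 5.73 to 3.07 ± 0.605 CPM, and MATK, itself an inhibitor of Src kinases, fell from 50.1 ± 0.233 to 15 ± 0.198 CPM. Phosphoinositide enzymes rose in 26 of 63 cases and fell in 10, although their median of 0.20 was -0.02 on log2(TPM + 1), where 16 rose and 13 fell. INPPL1, the 5-phosphatase SHIP2, rose from 91.4 ± 1.79 to 299.7 ± 26 CPM, PIK3R1 rose from 36.5 ± 8.56 to 141 ± 0.924 CPM and SYNJ2 rose from 56.6 ± 0.0728 to 255 ± 8.3 CPM. SPHK1, the sphingosine kinase, rose from 4.1 ± 0.319 to 22.5 ± 1.11 CPM, and PLCG1 fell from 16.6 ± 1.28 to 5.42 ± 0.309 CPM.

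Membrane traffic genes included the secretion machinery of granules. Of 71 tested SNARE, SNARE partner and synaptotagmin genes, 36 rose and 9 fell (median log2 fold change 0.43, and 0.07 on log2(TPM + 1)). UNC13A, a priming factor of vesicle fusion best known from neurons, was at 13.4 and 16.1 CPM in the untreated and 551 and 468 CPM in the PMA libraries (log2 fold change 5.11, SE 0.14, adjusted p = 8.77e-07). VAMP8, the main vesicle SNARE of platelet granules, rose from 66 ± 4.85 to 134 ± 7.78 CPM, and STXBP2, the syntaxin-binding protein Munc18-2 needed for platelet secretion, rose from 89.1 ± 11.2 to 269 ± 6.13 CPM. STX1A and SYT11 rose from 1.26 ± 0.0191 to 17.3 ± 1.49 CPM and from 13.2 ± 0.673 to 75.9 ± 1.88 CPM, and STXBP6 fell from 12 ± 0.695 to 3.09 ± 0.574 CPM. CAV1 and CAV2, the coats of caveolae, rose from 0.661 ± 0.0345 to 22.1 ± 6.68 CPM and from 3.78 ± 0.523 to 29.6 ± 2.17 CPM, DNM3, the dynamin studied in megakaryocytes, rose from 1.26 ± 0.0712 to 31.5 ± 5.3 CPM, and BIN1, an amphiphysin, fell from 6.28 ± 0.341 to 1.62 ± 0.277 CPM. Lipoprotein receptor genes moved in both directions. LRP10 was at 43.2 and 58.9 CPM in the untreated and 551 and 613 CPM in the PMA libraries (log2 fold change 3.51, SE 0.19). LRP12 rose from 22.9 ± 4.5 to 331 ± 23.7 CPM. LRP3 and LRP4 fell from 9.72 ± 1.15 to 1.8 ± 0.0635 CPM and from 15.8 ± 3.48 to 3.08 ± 0.347 CPM.

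**Figure D3:**
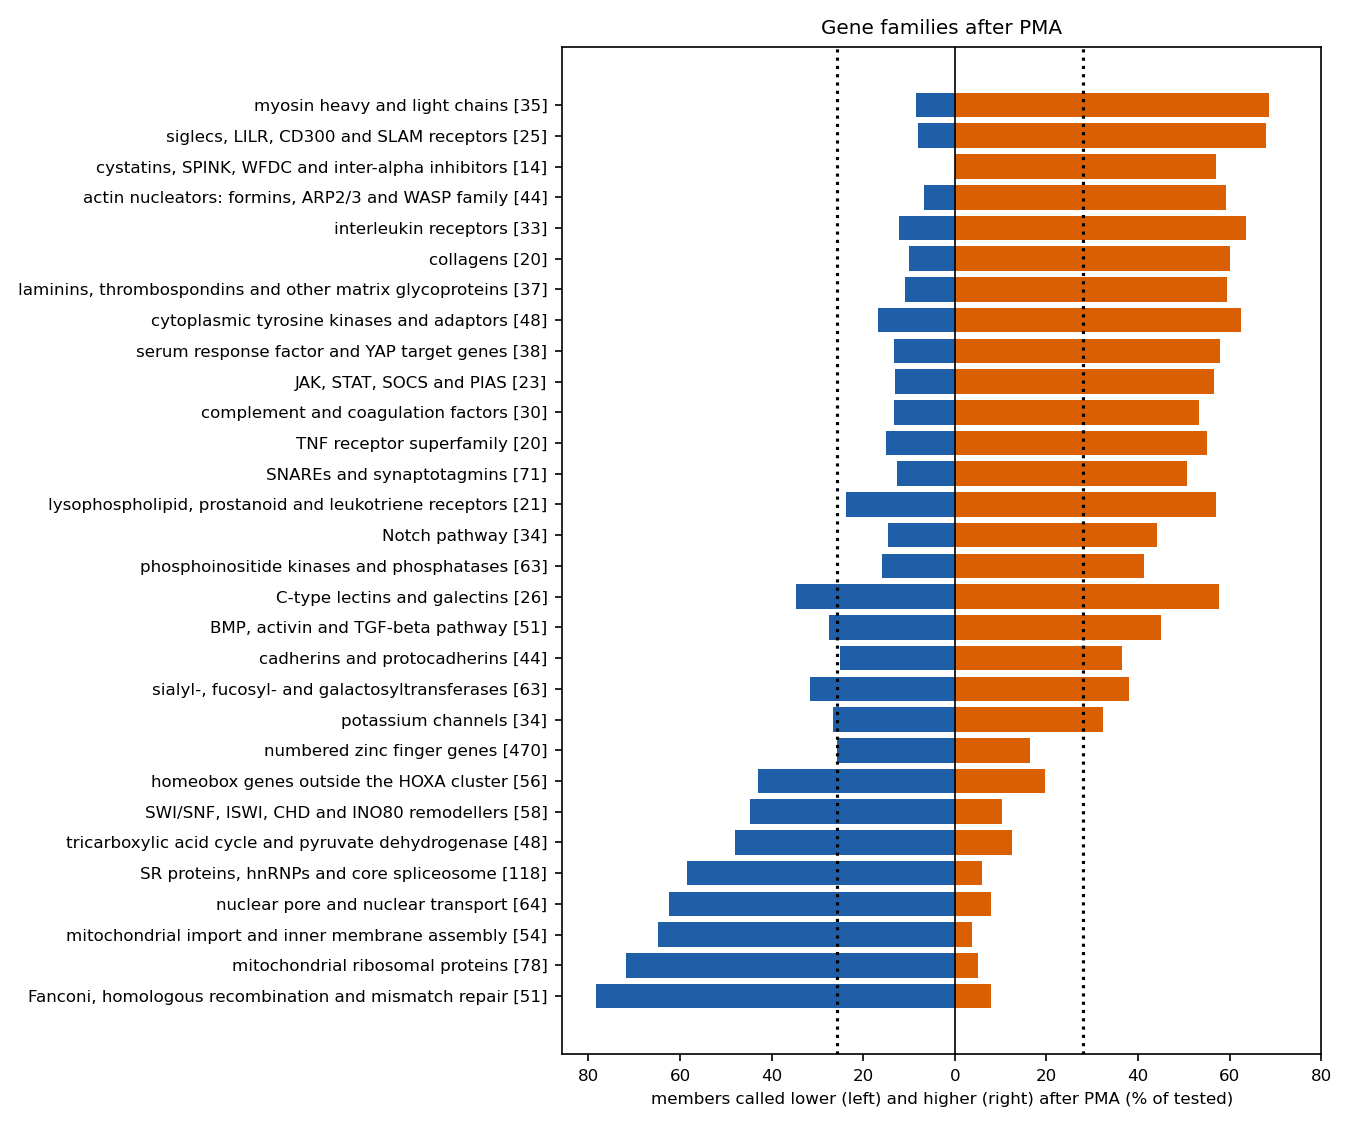
Share of tested members called higher (right, orange) and lower (left, blue) in 30 gene lists after PMA, with the number tested in brackets. The dotted lines mark the 27.9% of all tested genes called higher and the 25.7% called lower. For tested protein-coding genes, which the lists mainly hold, the shares were 30.3% and 28.8%.

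Genes of RNA processing and of nuclear and mitochondrial protein supply fell by small steps in large numbers. Of 118 tested spliceosome genes 69 fell and 7 rose, yet only 3 fell at least 2-fold and the median log2 fold change was -0.32. HNRNPA1, the most abundant of them by CPM, was at 1871 and 2184 CPM in the untreated and 1118 and 1188 CPM in the PMA libraries (log2 fold change -0.81, SE 0.11). Of 64 tested nuclear pore and transport genes 40 fell and 5 rose (median -0.43). NUP210 fell from 202 ± 13.7 to 57.2 ± 3.16 CPM, NDC1, which anchors the pore in the membrane, fell from 179 ± 19.4 to 52.1 ± 1.29 CPM, and RCC1, the exchange factor of Ran, fell from 246 ± 16.3 to 82.1 ± 4.04 CPM. The directions of these 2 lists were the same on the TPM scale, where 90 and 51 members fell. On that scale the median of all tested genes was itself -0.14, so these larger counts add no support.

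Of 78 tested genes for mitochondrial ribosomal proteins, 56 fell and 4 rose (median -0.51). MRPL12 fell from 196 ± 4.72 to 107 ± 7.16 CPM and MRPS26 fell from 39 ± 1.52 to 15 ± 1.47 CPM, while MRPL52 was at 51.2 and 54.7 CPM in the untreated and 108 and 116 CPM in the PMA libraries (log2 fold change 1.08, SE 0.08). Import and inner membrane assembly genes fell in 35 of 54 tested members and rose in 2, among them the chaperonin pair HSPD1 and HSPE1, which fell from 1527 ± 114 to 739 ± 44.2 CPM and from 347 ± 33.8 to 166 ± 6.56 CPM. These nuclear genes fell in libraries in which transcripts of the mitochondrial genome itself took a larger share. The run MT-ND3, MT-ND4L, MT-ND4 and MT-ND5 was higher by 1.24 to 1.52 on the log2 scale, but without PMA replicate 1 the changes were 0.50 to 0.86 and none of the 4 was called, and without untreated replicate 1 they were 0.99 to 1.36, again with no call. Citric acid cycle genes fell in 23 of 48 tested members and rose in 6, with PDK1, which switches pyruvate dehydrogenase off, rising from 49.8 ± 5.0 to 167 ± 32.5 CPM and DLAT, a core subunit of that complex, falling from 130.2 ± 5.84 to 48.6 ± 6.98 CPM.

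Genome repair genes were the list with the largest share of members lower among the 100 compiled. Of 51 tested Fanconi, homologous recombination and mismatch repair genes, 40 fell and 4 rose (median -0.86). EXO1, the exonuclease of mismatch repair, fell from 59.1 ± 6.79 to 16.9 ± 2.19 CPM, and the checkpoint kinase genes CHEK1 and CHEK2 fell from 55.6 ± 1.46 to 16.1 ± 2.92 CPM and from 48.2 ± 0.960 to 16.8 ± 1.71 CPM. In bulk RNA, fewer cells expressing a gene and less RNA per cell cannot be told apart.

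Among chromatin regulators, several related genes changed in opposite directions. HDAC9, a class IIa deacetylase, was at 0.208 and 0.0490 CPM in the untreated and 24.3 and 17.6 CPM in the PMA libraries (log2 fold change 7.42, SE 0.44). HDAC5, of the same class, rose from 26.5 ± 4.65 to 146 ± 4.17 CPM. HDAC7, also of class IIa, fell from 206 ± 35.9 to 116 ± 11 CPM, but its log2 fold change was 0.05 in the presence of Ceefourin 2. Over all 18 deacetylase and sirtuin genes, 8 rose and 4 fell, a balance that turned to 3 and 5 on log2(TPM + 1). Of 27 tested DNA methylation and demethylation genes 9 rose and 7 fell. DNMT3A, a de novo DNA methyltransferase, rose from 7.25 ± 0.129 to 27.8 ± 1.58 CPM, while its paralog DNMT3B fell from 56.7 ± 12.3 to 33 ± 2.28 CPM and UHRF1, which guides maintenance methylation, fell from 134 ± 24.4 to 66.4 ± 5.39 CPM. Among remodellers 26 of 58 fell and 6 rose. CHD5, a remodeller known from neurons, was at 73.6 and 74.7 CPM in the untreated and 7.6 and 7.57 CPM in the PMA libraries (log2 fold change -3.29, SE 0.10). CHD4 rose from 413 ± 54.2 to 693 ± 59.7 CPM, and HELLS, whose promoter stretch is printed above, fell from 21.2 ± 3.12 to 6.53 ± 1.44 CPM. The histone variant gene H2AFZ fell from 403 ± 37.1 to 175 ± 24.7 CPM.

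Transcription factor families were mostly mixed. Homeobox genes outside the HOXA cluster fell in 24 of 56 tested members and rose in 11 (median -0.59, and 25 lower and 6 higher on log2(TPM + 1)). HOXD13 fell from 14.6 ± 6.18 to 2.74 ± 0.942 CPM and DLX1 fell from 23.3 ± 4.85 to 6.67 ± 0.926 CPM, while PBX4 rose from 0.393 ± 0.115 to 19.2 ± 3.15 CPM. The immediate early orphan receptors NR4A1 and NR4A2 rose from 1.71 ± 0.0601 to 28.8 ± 2.47 CPM and from 7.02 ± 0.698 to 40.7 ± 3.33 CPM, and NR2F2, the orphan receptor COUP-TFII, was at 218 and 203 CPM in the untreated and 622 and 523 CPM in the PMA libraries (log2 fold change 1.44, SE 0.10). NFATC1 rose from 2.66 ± 0.351 to 34.6 ± 2.16 CPM. SOX21 was at 19.4 and 11.3 CPM in the untreated and 1.66 and 0.670 CPM in the PMA libraries (log2 fold change -3.68, SE 0.58). Its antisense neighbour SOX21-AS1, annotated on the other strand and not overlapping it, fell from 6.76 ± 1.49 to 0.830 ± 0.624 CPM. The numbered zinc finger genes, most of them encoding repressors, fell in 121 and rose in 77 of 470 tested members. These shares of 25.7% lower and 16.4% higher lay below the 28.8% and 30.3% of tested protein-coding genes. On log2(TPM + 1) the counts were 162 lower and 24 higher. Of the factors that destabilise mRNA with AU-rich elements, ZFP36L1 was at 41.7 and 54.8 CPM in the untreated and 416 and 479 CPM in the PMA libraries (log2 fold change 3.21, SE 0.23) and ZFP36 rose from 12.8 ± 3.01 to 85.8 ± 15.1 CPM, whereas ZFP36L2 fell from 41.1 ± 2.96 to 24.1 ± 3.33 CPM, a call that was lost with any 1 of the 4 libraries left out (log2 fold changes from -0.63 to -0.92).

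Metabolic genes changed at single steps. FABP5, a fatty acid binding protein, was at 218 and 207 CPM in the untreated and 58.6 and 60.6 CPM in the PMA libraries (log2 fold change -1.83, SE 0.09). CD36, the fatty acid and thrombospondin receptor, was at 16.5 and 20.2 CPM in the untreated and 115 and 134 CPM in the PMA libraries (log2 fold change 2.76, SE 0.20). ACADVL, the first enzyme of very long-chain fatty acid oxidation, rose from 117 ± 3.95 to 580.2 ± 7.5 CPM. Retinoid enzymes were divided, with RDH10, which makes retinal, at 23.8 and 17.4 CPM in the untreated and 355 and 275 CPM in the PMA libraries (log2 fold change 3.93, SE 0.19), DHRS3, which reduces retinal again, rising from 19.4 ± 3.64 to 98.9 ± 6.82 CPM, and ALDH1A1, which makes retinoic acid, falling from 398 ± 42.1 to 179 ± 6.97 CPM. In polyamine metabolism the catabolic enzymes SMOX and SAT1 rose from 4.99 ± 1.51 to 33 ± 0.219 CPM and from 7.8 ± 1.42 to 34.9 ± 1.35 CPM. TYMS and DCK, which supply thymidylate and salvage deoxynucleosides, fell from 279 ± 1.45 to 87.3 ± 16.2 CPM and from 62.4 ± 4.39 to 22.2 ± 2.81 CPM. DDAH2 rose from 32.5 ± 4.63 to 124 ± 6.57 CPM and DDAH1 fell from 35.8 ± 2.33 to 14.3 ± 0.199 CPM, both of which degrade inhibitors of nitric oxide synthase. MGST1 and GSTP1, glutathione transferases, fell from 132 ± 2.47 to 37.3 ± 4.23 CPM and from 14.8 ± 4.57 to 3.75 ± 1.15 CPM, and GPX1, the glutathione peroxidase, rose from 246 ± 7.42 to 569 ± 87.9 CPM. PKLR, the red cell and liver pyruvate kinase, fell from 26.2 ± 4.24 to 1.91 ± 0.998 CPM, and ERFE, the erythroblast hormone that lowers hepcidin, fell from 10.8 ± 2.1 to 1.0 ± 0.0231 CPM.

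On the TPM scale, which allows genes to be compared per length, the largest gains of level outside the globin locus and the mitochondrial genome were in TMSB4X, the actin monomer binder thymosin beta 4, at 1271 and 1298 TPM in the untreated and 5572 and 8954 TPM in the PMA libraries, and in FTL, the ferritin light chain, at 7463 and 7679.6 TPM in the untreated and 12646 and 13815 TPM in the PMA libraries. TIMP1 went from 210.5 to 3001 TPM. The largest losses included NPM1, a nucleolar chaperone, at 5377 and 4944 TPM in the untreated and 2199 and 2213 TPM in the PMA libraries, and PTMA, at 2462 and 2125 TPM in the untreated and 1062 and 1167 TPM in the PMA libraries. TUBA1B and TUBB, the abundant tubulins of dividing cells, went from 1932 to 804 and from 1487 to 477 TPM. TMSB4X, FTL, NPM1, PTMA, HNRNPA1 and the tubulins have near-identical processed copies elsewhere in the genome, so their levels are uncertain by the reads that RSEM shares out.

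**Figure D4:**
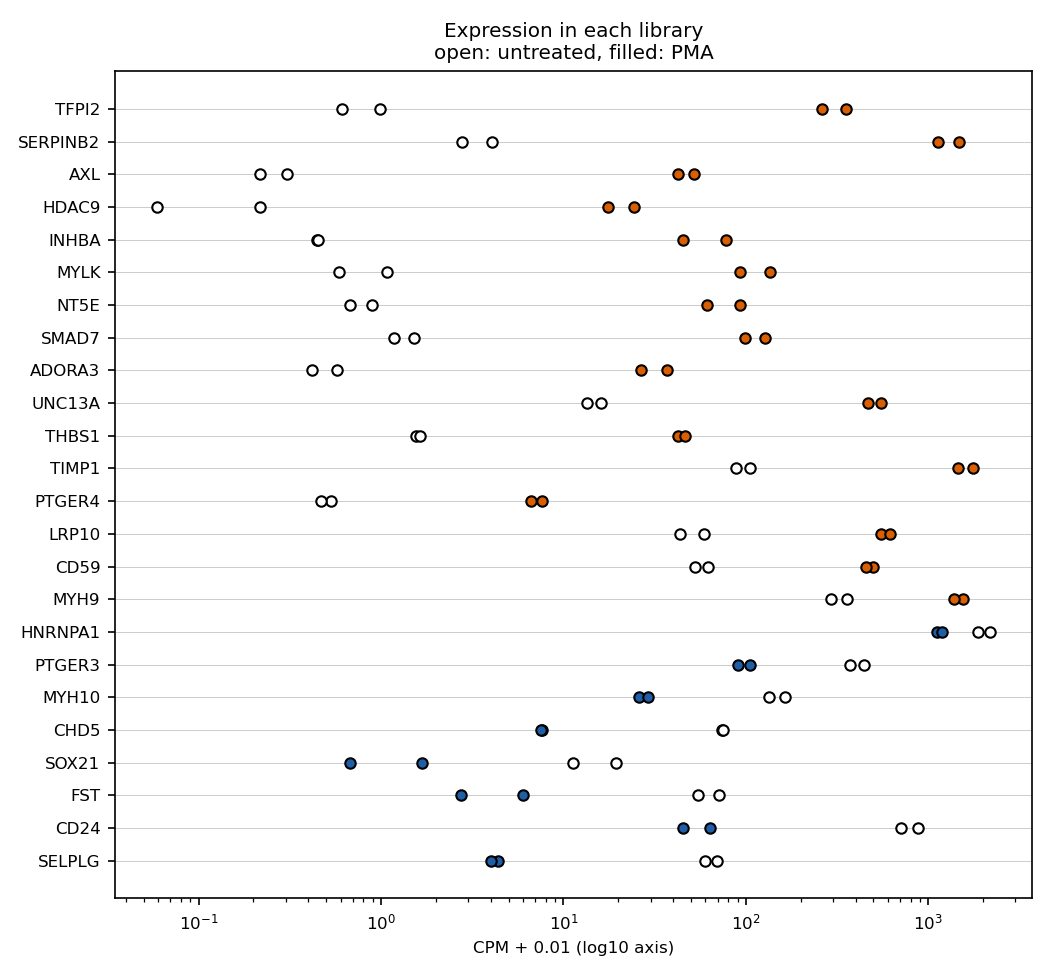
CPM in each of the 4 libraries for 24 genes of the text, on a log10 axis of CPM + 0.01, ordered by log2 fold change. Open circles are untreated and filled circles PMA libraries, and the genes were chosen among those whose 2 groups did not overlap.

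Genes that lie side by side changed in the same direction at several places. In 51 runs of 4 or more consecutive tested protein-coding genes (positions from GENCODE 29, GRCh38), every member changed in 1 direction by at least 2-fold, 42 higher and 9 lower. Of all 13549 such genes, 2235 were higher and 1421 lower by at least 2-fold. How many runs these shares alone would give was not tested. The longest run that fell was the HOXA cluster on chromosome 7 from 27106184 to 27200106, in which 8 genes, among them HOXA5, HOXA7, HOXA9 and HOXA10, were lower by 1.38 to 4.19 on the log2 scale. The epidermal differentiation region on chromosome 1 from 152032506 to 153541765 held 8 genes that rose, among them S100A11, S100A6, TCHH and SPRR2A. Clade B serpins rose together on chromosome 18 from 63637259 to 63936111 (5 genes with SERPINB2, SERPINB3 and SERPINB4 among them), and the EGF family genes EREG and AREG rose in a run of 4 on chromosome 4 from 74308473 to 75050115. Chemokine genes rose in a run on chromosome 4 (CXCL8, CXCL1, PPBP, CXCL3 and CXCL2, by 3.23 to 7.94) and in runs on chromosome 17, where CCL3, CCL4 and their near copies can share reads. On chromosome 11 5 genes of the MS4A family, among them MS4A3, MS4A6A and MS4A4A, fell by 2.35 to 4.59 between 60056587 and 60317944. Neighbouring genes can overlap or share reads, and some members of low count lost their call when 1 library was left out.

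Long non-coding RNA genes were called at 22.5% higher and 14.1% lower of 2193 tested against 30.3% and 28.8% of 13563 coding genes, and the difference was not tested. LINC00973 was at 0.0208 and 0.0163 CPM in the untreated and 7.55 and 6.94 CPM in the PMA libraries, and LINC01160 rose from 0.0711 ± 0.0543 to 11 ± 3.74 CPM. FIRRE fell from 9.09 ± 0.869 to 2.22 ± 0.726 CPM.

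Markers of other cell types moved as well. Of 20 genes of monocytes, macrophages and osteoclasts in the list, 14 were tested, 10 rose and 2 fell. DCSTAMP, which drives the fusion of osteoclast precursors, was at 0 and 0 CPM in the untreated and 26.3 and 21.3 CPM in the PMA libraries. VSIG4, a complement receptor of macrophages, was at 0.0624 and 0.0327 CPM in the untreated and 11.1 and 12.9 CPM in the PMA libraries, ITGAX rose from 0.532 ± 0.194 to 10.3 ± 0.105 CPM, CD68 rose from 178 ± 15.8 to 546 ± 41.9 CPM, and ITGAM, the alpha chain of the myeloid integrin Mac-1, was at 53.6 and 50.8 CPM in the untreated and 3.76 and 3.2 CPM in the PMA libraries (log2 fold change -3.90, SE 0.18). The summed TPM of that list was 222 and 222 in the untreated and 468 and 516 in the PMA libraries, of which CD68 alone made up 161 and 167, and 392 and 440.1. CD163, MARCO and CALCR of that list were at 0 in all 4 libraries. Of 17 tested erythroid genes 4 rose and 12 fell (median -1.06). The summed TPM of the erythroid list was nevertheless higher, at 10658 and 11613 in the untreated and 32631 and 39880 in the PMA libraries. HBG2 alone made up 7167 and 8309 of it in the untreated and 30636 and 37148 in the PMA libraries. Of 12 tested endothelial genes 8 rose and 2 fell, and of 12 tested mast cell and basophil genes 5 rose and 3 fell (5 and 5 on log2(TPM + 1)). The largest log2 fold change in the endothelial list, 8.77, was also the largest among the megakaryocyte genes, so these lists share a gene. PECAM1, shared by endothelium and platelets, rose from 153 ± 8.49 to 527 ± 60.5 CPM. Of 6 tested fibroblast and smooth muscle genes 4 rose and 1 fell, with PDGFRA at 0.852 and 0.796 CPM in the untreated and 51.1 and 60.4 CPM in the PMA libraries. Of 5 tested lymphoid genes 1 rose and 1 fell. The single gene that rose was GZMB, at 0.0208 and 0.0327 CPM in the untreated and 171 and 69.6 CPM in the PMA libraries, where PMA replicate 1 was more than 2-fold above replicate 2. The part of any such cell or state in the family counts above was not tested.

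The direction of change was checked in the 4 libraries that this comparison does not share, PMA with Ceefourin 2 against Ceefourin 2 alone. Of the 2815 genes that rose at least 2-fold, 2791 had a log2 fold change of the same sign there (99.2%), with medians of 2.05 here and 1.87 there. Of the 1781 that fell at least 2-fold, 1753 had the same sign (98.4%), with medians of -1.50 and -1.34. Among genes not called, 76.4% had the same sign. For SERPINB2, MYH10, INHBA and FST, the log2 fold changes with Ceefourin 2 were 7.85, -2.35, 7.42 and -3.52 against 8.56, -2.44, 7.12 and -3.84 without it.

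**Figure D5:**
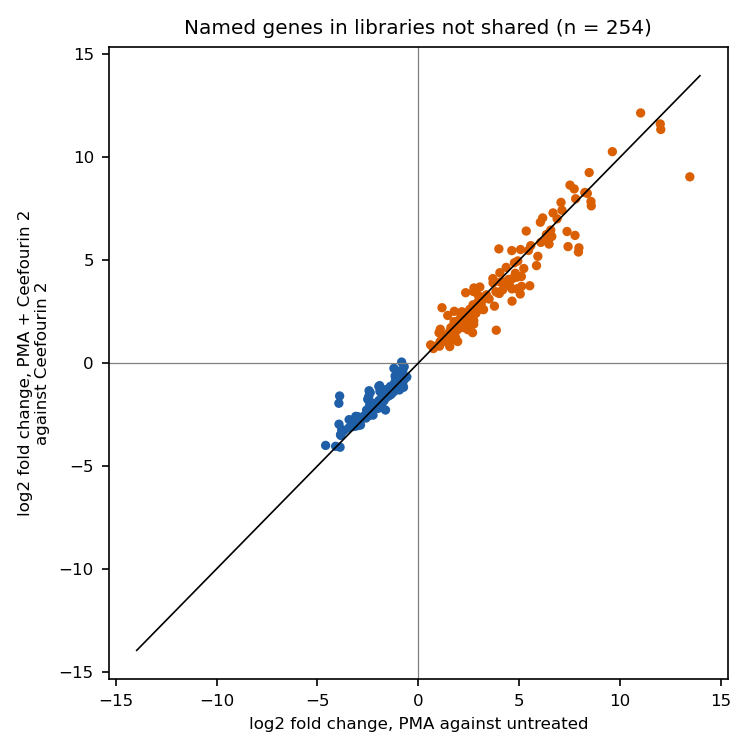
Log2 fold change after PMA (x axis) against that of PMA with Ceefourin 2 over Ceefourin 2 alone (y axis, no shared library) for the genes named in the text, with the line of equal change. Of 254 named genes 253 have the same sign on both axes, and HDAC7 is the exception.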

How the data were processed

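Paired-end reads of stranded messenger RNA libraries were made from 1 cell line, per the labels' protocols. Per the submitters' processing notes, STAR 2.7, RSEM 1.3.1 and hg38 were used, and the sources name no annotation release. The deposited expected counts (RSEM estimates by the authors, not normalized) and deposited TPM cover 60754 genes.

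Rounded expected counts were tested with edgeR 4.0.16 in R 4.3.3 (filterByExpr, TMM, quasi-likelihood test, group means fitted over all libraries, 17314 genes). The common biological coefficient of variation was 13.6%. Counts were also simulated for this comparison (16950 genes, 200 altered). There 79% of altered genes with a 2-fold change and 99% with a 4-fold change were found. Of the 190 calls 6.316% were false. These shares hold for few altered genes, whereas the real libraries gave 4838 rises and 4443 falls. How TMM scaling performs under so broad a change was not tested by this simulation. Alternatives used DESeq2 1.42.0, limma 3.58.1 on log2(TPM + 1) or log2(TPM + 0.1), other scaling and filters, a replicate block, and each library left out.

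The genes and 100 lists were chosen with earlier results of these data known, and hits of a name pattern outside its family were removed after being seen, so list counts are descriptions without a test. Genes named were drawn from, per list, up to 4 rises and 4 falls with the largest changes (called, at least 5 CPM in a group) and the 3 members highest in TPM, and over all genes the largest changes on either scale, non-coding genes and runs of neighbours. The largest changes over all genes and the non-coding genes were limited to those without overlap between untreated and PMA libraries. That separation is therefore no support for them.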

Additional observations from a re-analysis of the deposited data

How the results depend on the processing

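edgeR called 4838 genes higher and 4443 lower. With RLE size factors, with no filter, with a minimum of 1 CPM in 2 libraries, with the 4 libraries alone, without mitochondrially encoded genes and with DESeq2, the counts lay between 4232 and 5177 higher and between 4056 and 4645 lower. limma on log2(TPM + 1) called 3197 higher and 5831 lower, and 3109 and 5157 with no filter, and on log2(TPM + 0.1) it called 3306 and 5870. With 1 library left out, 3903 to 4070 genes were higher and 3295 to 3651 lower, where the lone library of a group is taken to vary like the others.

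With a replicate block 5667 genes were higher and 5489 lower, and no named gene changed its call. The labels do not say what a shared number means. The differences between replicates correlated at 0.186 between the untreated and PMA groups and at 0.137 to 0.363 over all 6 pairs of groups, with only 2 replicates each.

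Of 254 named genes, 246 kept direction and call under every alternative that gave them a value. CXCL1 had none at the 1 CPM minimum, nor had the mitochondrial genes where these were left out. CHD4 (0.51, no filter on TPM) and KCNN4 (0.35, TPM) lost their call in limma, as did ZFP36L2 (-0.93) with no filter. MT-ND3, given in the report with its run, also lost it without untreated replicate 2 (1.16). MT-ND3, MT-ND4 and MT-ND4L lost it in all 3 limma fits (0.87 to 1.09), and MT-ND5 in the one with no filter (1.23). COL23A1, not called in edgeR, passed under some alternatives. Medians of 44 of 100 lists changed sign under at least 1 alternative, 23 of them on log2(TPM + 1), so a list median near 0 gives no direction. With 2 libraries per group, genes under about 1 CPM rest on few reads.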
